A study of Drosophila melanogaster with 3 samples.

Results

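Heterochromatin protein 1 (HP1) peaks on 3LHet, the part of the left arm of chromosome 3 that FlyBase release 5 holds as a separate heterochromatin sequence of Drosophila melanogaster, were taken as every entry of the deposited peak list placed on that sequence. They numbered 847 of 15755 peaks, or 5.38% of the list, and 29.9% of the 2831 peaks on the 6 sequences whose names end in Het. They were chosen by position alone, and neither width nor score entered the choice. The series mapped HP1 by chromatin immunoprecipitation and sequencing (ChIP-seq) in whole embryos aged 8 to 16 h, with 1 input DNA sample and 2 replicates precipitated with a polyclonal antibody from rabbit, raised against the full-length fly protein. Whether the replicates came from separate collections of embryos is not stated in the labels. All 3 samples came from the strain labelled Y cn bw sp. Its listed alleles were y[1] and oc[R3.2], then Gr22b[1], Gr22d[1], cn[1] with CG33964[R4.2], bw[1] and sp[1], and finally LysC[1], lab[R4.2] and MstProx[1] together with GstD5[1] and Rh6[1]. Whole embryos mix all cell types of these stages, so a peak cannot be assigned to one of them. The list does not mark replicates, so no value here has an error between samples, no test over samples was possible, and differences between regions are given as a description.

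HP1 is a structural protein of heterochromatin, the compact and repeat-rich chromatin that surrounds the centromeres and silences many transposable elements. Its chromodomain binds histone H3 methylated on a lysine of its tail, a mark set in flies by enzymes such as Su(var)3-9, and its chromoshadow domain joins HP1 molecules to one another and to partner proteins. HP1 can thereby extend over long stretches of neighbouring nucleosomes, and in Drosophila it is known for its role in position-effect variegation, the patchy silencing of genes placed next to heterochromatin. The Het sequences of release 5 were built from pieces assigned to a chromosome arm but not joined to its main sequence. Order and spacing along 3LHet are therefore those of the assembly. No gene or repeat annotation of this release was used here, and no region below is tied to a gene.

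HP1 peaks on 3LHet ran from position 59 to position 2550538 and occupied a large minority of the bases in between. The end of the last peak served as the length, so any sequence beyond it is not seen. Together they covered 1091824 bp, or 42.8% of the sequence up to the end of the last peak, at 332.1 peaks per Mb. Up to the midpoint of the sequence 43.0% of bases lay under 411 peaks, and beyond it 42.6% under 436, so the load was nearly the same on both sides. Below that scale the coverage was uneven. In the 25 full bins of 100 kb the lowest was 17.0%, the median 42.3% and the highest 64.8%, with an SD between bins of 12.6 percentage points, and 8 bins were over 50% covered while 4 were under 30%. The last, shorter bin, from 2500001 to 2550538, was 32.8% covered by 17 peaks.

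The best and the worst covered bins stood side by side. The bin from 2400001 to 2500000 had 64.8% of its bases under 41 peaks, and the bin just before it, from 2300001 to 2400000, had 17.0% under 22 peaks. Bins of high coverage also stood at 400001 to 500000, with 62.2%, and at 1400001 to 1500000, with 61.3%. The former lay in a run from 300001 to 700000 in which every bin was over 50% covered. Low coverage was found at the start of the sequence, with 23.8% in the first bin and 25.3% in the second, and again at 2100001 to 2200000, with 25.3%. Coverage of neighbouring bins showed a Spearman correlation of 0.01 over 24 pairs. Apart from such runs, the coverage of one bin thus told little about that of the next.

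**Figure D1:**
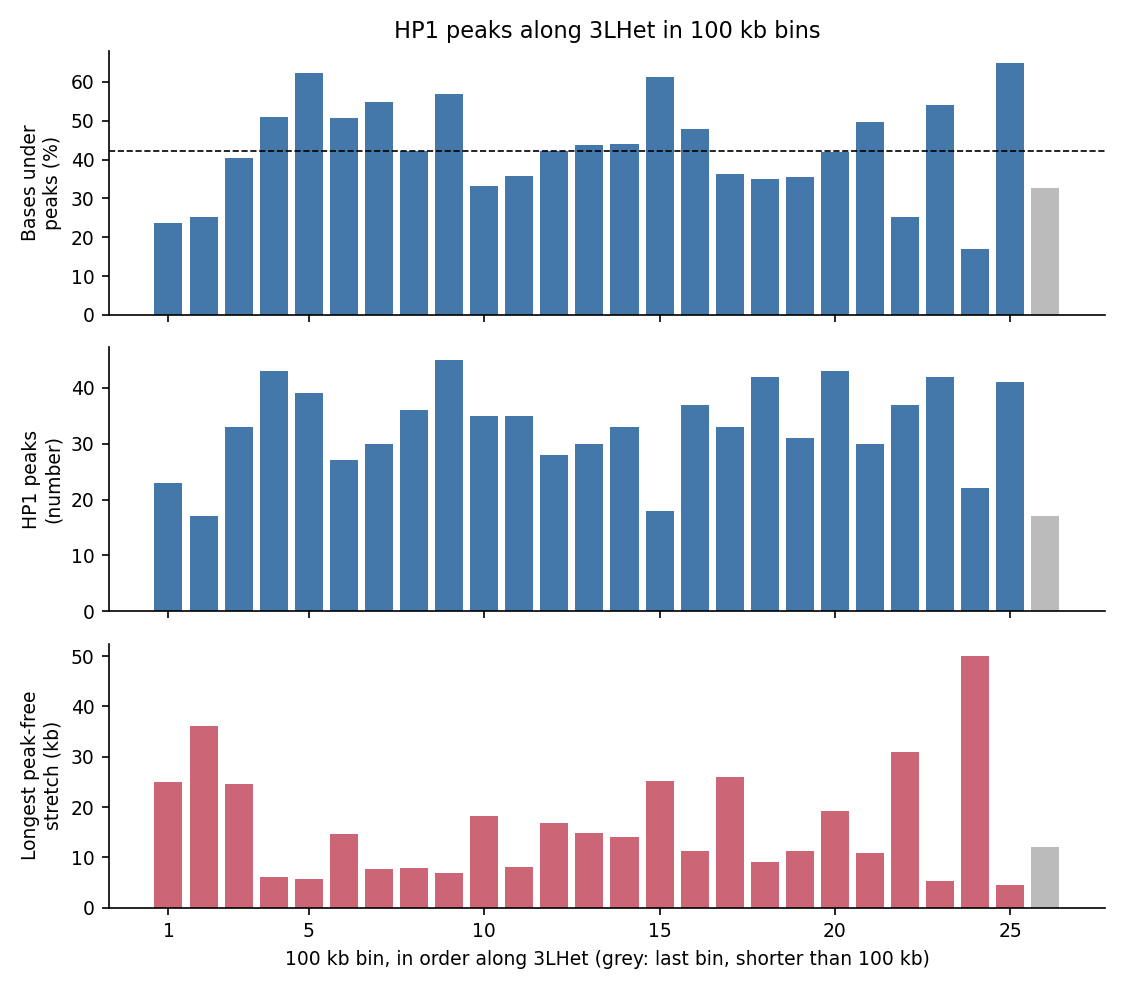
Share of bases under HP1 peaks (top, in percent, with the median of the full bins dashed), number of peaks (middle) and longest peak-free stretch in kb (bottom, placed by its midpoint) in each 100 kb bin of 3LHet, in order. The tallest bar of coverage, 64.8% in bin 25, follows the lowest, 17.0% in bin 24, which holds the longest peak-free stretch.

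How many peaks a bin held said little about how much of it was covered. The bin from 1400001 to 1500000 had only 18 peaks, the second lowest number of the full bins, yet 61.3% coverage. Of these peaks 7 were at least 3 kb wide, and their median width was 1636.5 bp. The bin from 2100001 to 2200000 had 37 peaks and 25.3% coverage, with a median width of 526 bp and no peak of 3 kb or more. Over the 25 full bins, the Spearman correlation of coverage was 0.29 with the number of peaks, 0.83 with the number of peaks of at least 3 kb, and -0.69 with the longest peak-free stretch. Coverage and the latter measures share the same bases, and bins of one sequence are not independent, so these are descriptions.

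Most peaks were under 1 kb, while a minority of wide peaks held much of the covered sequence. Peak width had a median of 669 bp, with quartiles of 362.5 and 1496.5 bp and a range of 200 to 14443 bp. Peaks under 500 bp were 324 in number, or 38.3% of all, and held 9.66% of the covered bases. Peaks of at least 3 kb were 82 in number, or 9.68%, and held 40.5% of them. The 121 widest peaks, 14.3% of the total, sufficed to reach 50% of the covered bases. In the whole list 3.76% of peaks were at least 3 kb wide, but that list also takes in the unplaced sequences U and Uextra. Of the 228 such peaks on all Het sequences, 36.0% were on 3LHet, which is more than its 29.9% share of their peaks, and this difference was not tested. On the last 1 Mb of 3L, 9.23% of peaks were at least 3 kb wide, close to the 9.68% on 3LHet.

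The 10 widest peaks were scattered over 3LHet, from 8143 to 2409551. The widest ran from 1440013 to 1454455, which is 14443 bp, and carried a score of 121.2. The score is the authors' own value for each peak. No definition or scale of it was found in the labels or the file, so it is read here only as a rank within the list. The next were a peak of 14075 bp from 1874771 to 1888845 with a score of 92.8, one of 12496 bp from 580185 to 592680 with 124.2, and one of 11557 bp from 609279 to 620835 with 105.85. These 4 were the peaks of 10 kb or more on 3LHet, and 6 peaks on other placed sequences were wider than the widest of them.

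The remaining 6 of the 10 widest were 8201 to 9616 bp wide. The peak of 9616 bp lay from 363638 to 373253 and scored 70.2, and the peak of 9028 bp lay from 2400524 to 2409551 and scored 136.05. Width did not fix the score, as the peak of 8201 bp from 438851 to 447051 scored 43.5, which ranked 181st of 847. The other 3 lay from 1491025 to 1499594 (score 114.5), from 1172671 to 1181178 (score 120.6) and from 8143 to 16615 (score 101.2). All 6 had a neighbouring peak within 609 bp on at least one side.

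The lowest score on 3LHet was 6.44 and the highest 153.5, around a median of 22.4 and quartiles of 13.5 and 38.1. Of the 847 peaks, 244 (28.8%) reached the upper quartile of the whole list, 34.59. The share was 25.4% of all peaks in the list, which takes in U and Uextra, so 3LHet was close to that background. The same share was 20.6% on 2LHet, 19.1% on 2RHet and 20.4% on 3RHet, but 31.7% on the last 1 Mb of 3L. These differences were not tested. Score and width went together, with a Spearman correlation of 0.85 across the 847 peaks, which are not independent. The median score was 10.8 among peaks under 300 bp, 22.4 from 500 bp to 1 kb, 38.6 from 1 to 3 kb, and 113.5 for the 4 peaks of 10 kb or more. Of the 82 peaks of at least 3 kb, 80 reached the upper quartile of the list. The exceptions ran from 447469 to 452621 (5153 bp, score 33.5) and from 1261664 to 1265739 (4076 bp, score 34.4).

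The highest scores came from fewer places than the widest peaks. The top score of 3LHet, 153.5, belonged to a peak of 7589 bp from 1404474 to 1412062, and 23 peaks elsewhere in the list scored higher. The peak that follows it after 256 bp, from 1412319 to 1418972, had rank 4 with 132.5, and the peak from 1420303 to 1423323 had rank 10 with 120.95. The widest peak, 1440013 to 1454455, had rank 9, so 4 of the 10 highest scores lay between 1404474 and 1454455.

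A second group of high scores lay near 2.2 Mb and consisted of narrower peaks. They ran from 2194935 to 2197398 (2464 bp, score 130.4), from 2198670 to 2202386 (3717 bp, score 127.4) and from 2239301 to 2241943 (2643 bp, score 126.8). By width these ranked 118th, 57th and 100th on 3LHet. The other 3 of the 10 highest scores were the peak from 497891 to 504707 (6817 bp, score 137.6), the peak of 9028 bp at 2400524 (score 136.05) and the peak of 12496 bp at 580185 (score 124.2). Only 3 peaks were among both the 10 widest and the 10 highest-scoring. Among peaks under 1 kb the highest score was 75.3, from 1489859 to 1490722, between peaks of 7270 and 8570 bp.

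**Figure D2:**
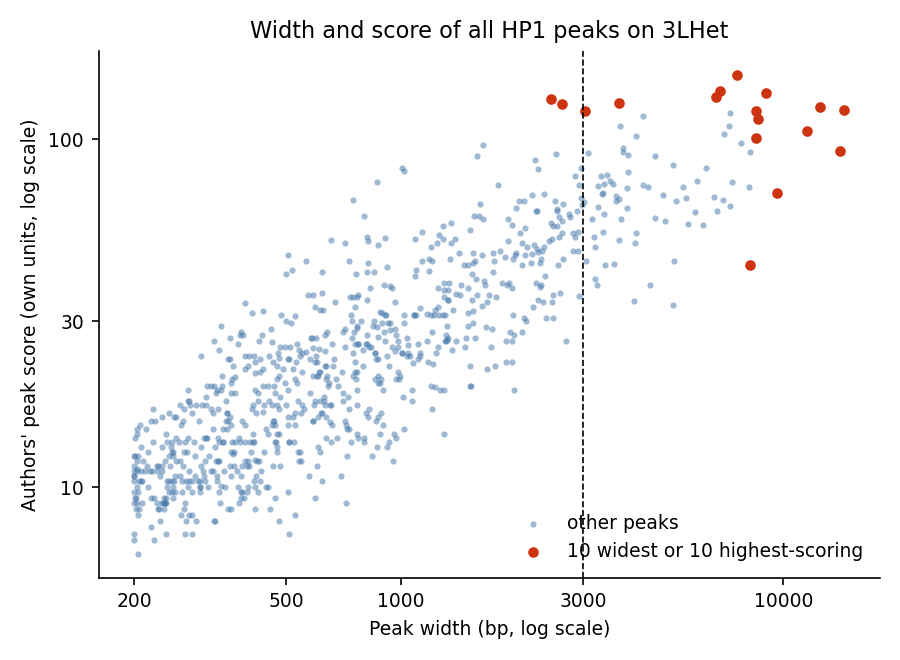
Width in bp against the authors' score in its own units for each of the 847 HP1 peaks of 3LHet, both on log scales, with the dashed line at 3 kb and the 10 widest or 10 highest-scoring peaks in red. Scores rise with width, and one red point, the peak of 8201 bp, has the lowest score of the red points, 43.5.

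Neighbouring HP1 peaks on 3LHet were mostly close together. The 846 gaps between them had a median of 507 bp, with quartiles of 211.75 and 1540 bp and a range of 45 to 49983 bp. Gaps under 200 bp numbered 196 (23.2%), and gaps under 1 kb numbered 565 (66.8%). No peaks touched or overlapped. Whether peaks so close are parts of one bound stretch cannot be told from the list. With peaks closer than 200 bp merged, there were 651.

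The bases outside peaks were in turn concentrated in few gaps. The 26 gaps of at least 10 kb held 484599 bp, which is 19.0% of 3LHet and 33.2% of all bases in gaps, and the 68 gaps of at least 5 kb held 29.9% of 3LHet. The longest peak-free stretch was 49983 bp, from 2323605 to 2373587. It separated a peak of 526 bp with a score of 15.1 from one of 1297 bp with a score of 36.9. The next longest ran from 88888 to 125100 (36213 bp), from 2160120 to 2191142 (31023 bp), from 125365 to 151609 (26245 bp) and from 1664983 to 1690950 (25968 bp). Stretches of 24654 to 25105 bp lay from 1456242 to 1481346, from 30858 to 55893 and from 200525 to 225178. The last 2 of the 10 longest ran from 1905315 to 1924577 (19263 bp) and from 975295 to 993604 (18310 bp).

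Long peak-free stretches were frequent at the low-coordinate end. The first 200 kb, a limit chosen after the gaps had been seen, made up 7.84% of the sequence and held 5 of the 26 gaps of at least 10 kb and 3 of the 8 of at least 20 kb. Of its bases 24.5% were under peaks, with 40 peaks, and 44.4% of the rest, with 807. The median peak width there was 467 bp, against 684 bp in the rest. It was 342 bp for the 23 peaks of the first 100 kb bin, but 978 bp for the 17 of the second. Of the peaks of at least 3 kb, 5 were among these 40 and 77 among the other 807. The sequence also began with a long domain, from 59 to 17597, which included the peak of 8473 bp named above. Where pieces of the assembly are joined and where reads could not be placed were not tested for any of these stretches.

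Peaks beside long gaps tended to be small. The 50 peaks that bordered a gap of at least 10 kb had a median width of 465.5 bp and a median score of 16.4, and the other 797 had 703 bp and 22.9. The ranges overlapped widely, from 200 to 6963 bp and from 200 to 14443 bp. Isolation was rare: 5 peaks had no neighbour within 5 kb on either side. They lay at 80797 to 81082 (286 bp), 86334 to 88887 (2554 bp, score 56.3), 125101 to 125364 (264 bp), 785268 to 786661 (1394 bp) and 1839201 to 1839661 (461 bp). The first 3 were in the sparse first 200 kb. Across all peaks, width had a Spearman correlation of -0.12 with the distance to the nearest neighbour, which is weak.

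**Figure D3:**
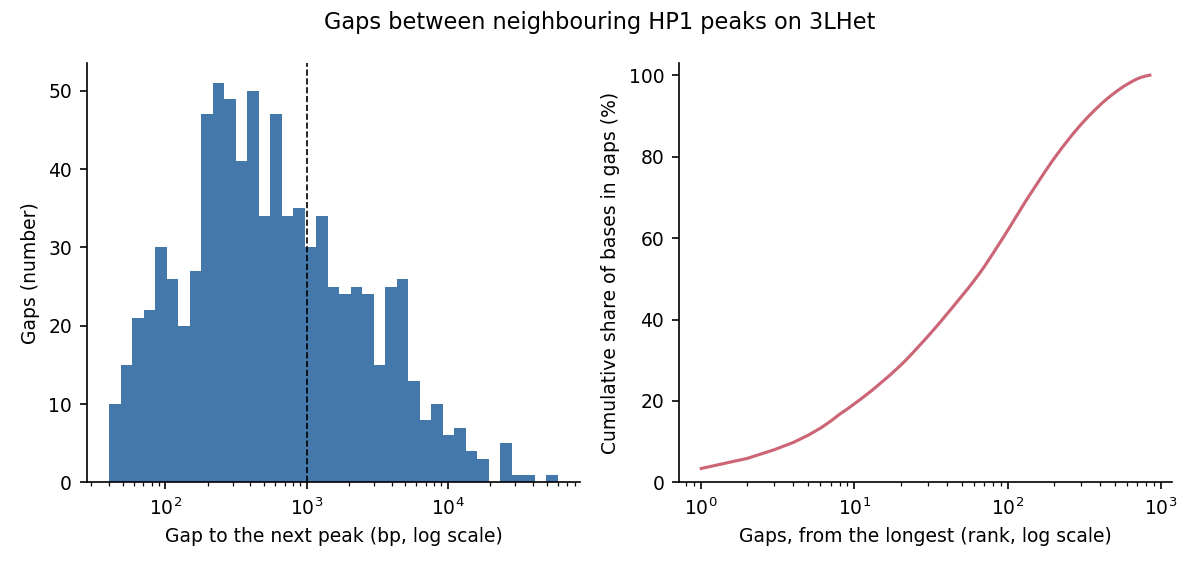
Left, the 846 gaps between neighbouring HP1 peaks of 3LHet by length in bp on a log scale, with the dashed line at 1 kb, the distance used to join peaks into domains. Right, the cumulative share of bases in gaps in percent, counted from the longest gap (log scale of rank). The 26 longest gaps hold 33.2% of these bases.

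Peaks were joined into domains wherever the gap between them was under 1 kb. This gave 282 domains that spanned 50.5% of 3LHet. Their median length was 2259 bp, with quartiles of 631.5 and 6492 bp, and the longest was 33635 bp. Single peaks made up 111 of the domains (39.4%) but held 7.91% of the bases in domains. At the other end, 38 domains of at least 10 kb held 47.6% of the bases in domains and 24.0% of 3LHet.

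Domains of more peaks were longer and reached higher scores. Domains of 2 to 4 peaks, 110 in number, had a median length of 3086 bp, the 50 domains of 5 to 9 peaks 8882 bp, and the 11 domains of at least 10 peaks 16631 bp. The median of the highest score in a domain rose from 16.8 for single peaks to 34.6, 59.3 and 66.8 in these classes. A domain of more peaks adds up more peaks and gaps, and it has more chances to hold a high score. The orders of length and of score are therefore partly built in. Peak bases filled 76.5% of the length in the median domain of at least 10 peaks.

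The longest domain ran from 2191143 to 2224777 and was built of 18 peaks, the largest number on 3LHet. They covered 84.9% of its 33635 bp, and the widest of them was 4853 bp. It began directly after the third longest peak-free stretch, and it held the peaks of ranks 5 and 6 by score. Inside it, widths ran from 200 to 4853 bp, and scores from 7.99 to 130.4.

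The second longest domain, of 28445 bp from 1481347 to 1509791, was made in another way, from 9 peaks, among them one of 7270 bp and one of 8570 bp. It too began at the end of a long peak-free stretch, of 25105 bp. The third, from 482987 to 508699, held 13 peaks over 25713 bp, with the score of 137.6 in a peak of 6817 bp and another wide peak of 7760 bp. The fourth, from 2480934 to 2506034, held 12 peaks over 25101 bp and reached a score of 73.1. The fifth, from 1396681 to 1419228, held the highest score of the sequence among 8 peaks over 22548 bp, and followed a peak-free stretch of 14054 bp.

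The remaining 5 of the 10 longest domains spanned 17539 to 21784 bp. The sixth, from 436458 to 458241, was the most completely filled of the 10, with 93.3% of its bases under 7 peaks, but its highest score was 73.6. The seventh ran from 1188513 to 1210046 with 9 peaks, and the eighth from 267467 to 287273 with 13 peaks and 76.5% of bases filled. The ninth, from 1871573 to 1889633, held the peak of 14075 bp within its 18061 bp, with 4 peaks of 327 to 1414 bp at its sides. The tenth was the domain at the start of the sequence, of 7 peaks over 17539 bp. The widest peak in each of the 10 longest domains was between 4853 and 14075 bp, and the number of peaks ran from 5 to 18.

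**Figure D4:**
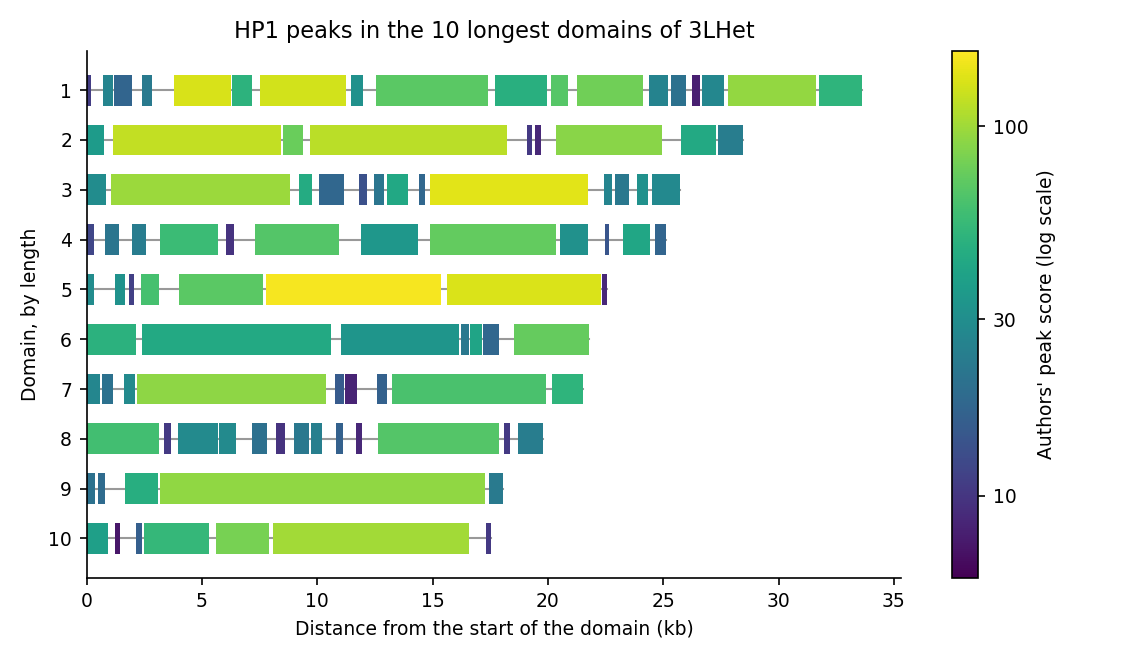
The 10 longest HP1 domains of 3LHet, ordered by length, with each peak drawn to scale as a bar from the start of its domain (kb) and coloured by the authors' score on a log scale; grey lines are gaps under 1 kb. The longest domain is made of 18 peaks, and the ninth holds 1 peak of 14075 bp among 5.

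High scores were also found outside the 10 longest domains. The peak with the third highest score stood in a domain of 9628 bp, from 2399924 to 2409551, with a single small companion. The peak of rank 7 stood in a domain of 5977 bp, from 2237139 to 2243115, and the peak of rank 10 in one of 3507 bp, from 1420303 to 1423809. In the 114 domains of at least 3 peaks, the highest score lay on an inner peak in 63 (55.3%). Inner peaks were 63.3% of all peaks in these domains. That share is weighted toward domains of many peaks, so it is no expectation for the share of domains. No such expectation was calculated, so 55.3% is read as neither high nor low. Inner and outermost peaks had similar medians, 767.5 and 714 bp in width and 24.4 and 23.4 in score. 

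With peaks joined across gaps of up to 5 kb, 3LHet fell into 69 stretches that took in 70.1% of the sequence, with a median length of 20865 bp. The longest was 149150 bp, from 2373588 to 2522737, with 64 peaks over 58.3% of its bases. It began where the longest peak-free stretch ended. Next came 82218 bp from 341029 to 423246 with 43 peaks and 79731 bp from 428969 to 508699 with 29, which are separated by 5722 bp. In all, 10 stretches of at least 50 kb took up 29.4% of 3LHet.

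Set beside the inner end of 3L, the arm to which it belongs, 3LHet had similar values. The last 1 Mb of the 3L sequence held 379 peaks at 379 per Mb and had 45.3% of its bases covered. The median peak width there was 663 bp against 669 bp on 3LHet, and the median gap 500.5 bp against 507 bp. The regions differed in their longest gaps. Gaps of at least 10 kb took up 8.41% of the inner 1 Mb of 3L, where they numbered 6 and the longest was 17883 bp. On 3LHet they took up 19.0% and numbered 26 over 2.55 Mb. Per Mb, such gaps numbered 10.2 on 3LHet and 6 on inner 3L. The length of the longest gap is not directly comparable between sequences of unequal length. Why the regions differed was not tested. Outside such gaps, 49.5% of the inner 3L bases and 52.8% of the 3LHet bases were under peaks. In 100 kb windows, coverage ran from 31.0% to 55.7% on inner 3L, within the range on 3LHet.

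Next to the other autosomal Het sequences, 3LHet had more of its bases under peaks, 42.8% against 34.0% on 2LHet, 31.9% on 2RHet and 31.3% on 3RHet. Of these, 2LHet was short, at 365464 bp. Peaks on 3LHet were wider, with a median of 669 bp against 514 bp on 2LHet, 560 bp on 2RHet and 534.5 bp on 3RHet. The number of peaks per Mb did not follow the same order, as 2LHet had 385.8 and 3LHet 332.1, with 318.8 on 2RHet and 302.7 on 3RHet. Long gaps took up 19.0% of 3LHet and 27.1% to 28.0% of the other sequences. With them left out, coverage was 52.8% on 3LHet and 43.1% to 47.1% on the others. Domains of at least 10 kb took up 24.0% of 3LHet, against 14.3% of 2RHet and 11.2% of 3RHet. On 2LHet there was 1 such domain, which took up 4.29%. On inner 3L such domains took up 19.8%. The longest domain of 2RHet, at 36139 bp, was longer than that of 3LHet, at 33635 bp.

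The windows of these sequences overlapped. Coverage in windows of 100 kb had a median of 42.3% on 3LHet, 32.1% on 2RHet (range 8.59% to 52.0%) and 32.5% on 3RHet (range 5.50% to 52.2%). Of the windows, 8 of 32 on 2RHet and 5 of 24 on 3RHet, but 0 of 3 on 2LHet, lay above the median of 3LHet. The highest window on them, 52.2% on 3RHet, was taken as a limit, so by construction none of theirs lay above it. Above this limit were 6 of the 25 windows on 3LHet, and on inner 3L windows of 53.1% and 55.7%. Windows are not replicates, and the difference was not tested. The longest peak-free stretch was longer on 2LHet (58471 bp), 3RHet (86550 bp) and 2RHet (119878 bp) than on 3LHet. XHet and YHet, with 32 and 12 peaks, were too sparsely covered (11.7% and 2.42%) for a comparison of domains.

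**Figure D5:**
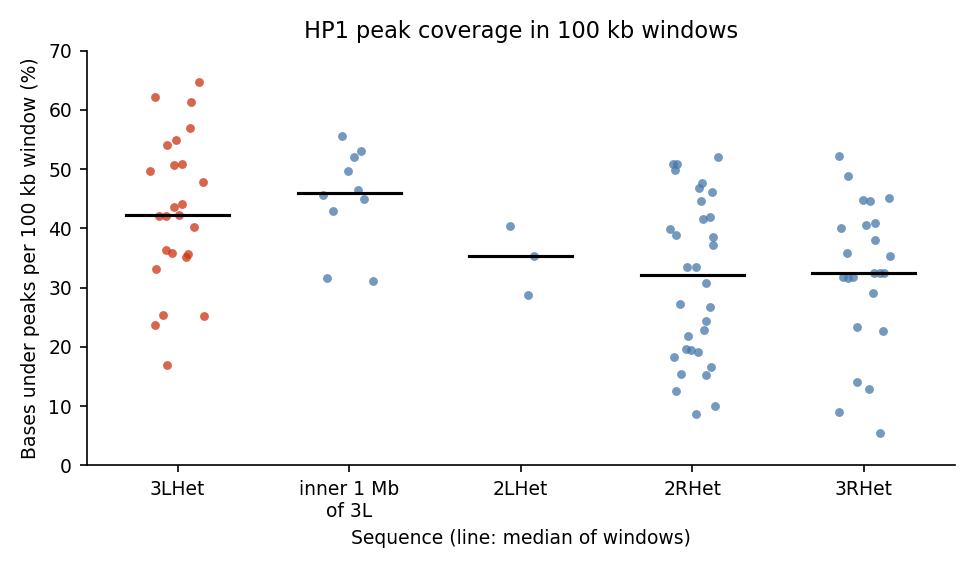
Share of bases under HP1 peaks in each full 100 kb window (points, percent) of 3LHet, the inner 1 Mb of 3L, 2LHet, 2RHet and 3RHet, with the median of the windows as a line. The medians are 42.3% on 3LHet and 46.0% on inner 3L, against 35.4% on 2LHet, 32.1% on 2RHet and 32.5% on 3RHet, with overlapping ranges.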

How the data were processed

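ChIP-seq of HP1 was made from 1 input and 2 ChIP samples of cross-linked embryos, per the labels' protocols. Per the submitters' processing notes, the authors used BWA and MACS2 besides CASAVA, in versions 1.7.0.2 and 1.7.0.3. Per the file headers, the deposited list of peaks uses FlyBase release 5. Each deposited score is the authors' own value, with no stated definition. The sources used here give no parameters, no peak threshold, no rule for multiply mapping reads and no word on pooling of replicates, and the read depth is unknown, so no counting error is attached.

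Starts were read as counting from 0, since the lowest start in the list is 0, and are printed counting from 1. The end of the last peak served as the length of a sequence. Peaks were put into bins by their midpoint. Domains join gaps under 1 kb. Regions named are the 10 widest peaks, 10 highest scores, 10 longest domains, 10 longest gaps and extreme 100 kb bins; others, such as isolated peaks and the first 200 kb, were chosen after their values were seen. Members and rules were chosen with earlier results of these data known. Calculations used Python 3.11.15, numpy 2.4.6, pandas 2.3.3 and scipy 1.17.1, and the domain and coverage steps were tested on simulated data. Alternatives were other score limits, joining distances, bin sizes and lengths, and merging of close peaks.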

Additional observations from a re-analysis of the deposited data

How the results depend on the processing

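The values on 3LHet depend on which peaks are kept and how they are joined. With scores of at least the median of the list, 20.96, 3LHet had 178.8 peaks per Mb, 36.1% of bases covered, 40 peak-free stretches of at least 10 kb and a longest one of 78991 bp. With scores of at least the upper quartile, 34.59, it had 95.7 peaks per Mb, 28.1% covered, 166 domains, 56 such stretches and a longest one of 96588 bp. Fewer peaks lengthen the gaps by construction. At these limits, in a comparison added after seeing the data, coverage was 24.8% and 17.3% on 2LHet, 24.2% and 16.9% on 2RHet, 23.9% and 17.8% on 3RHet, and 37.4% and 30.8% on inner 3L. Joining peaks within 500 bp, 2 kb or 5 kb gave 426, 176 or 69 domains, which spanned 46.5%, 56.4% or 70.1% of the sequence. The longest was then 21075, 66170 or 149150 bp. Bins of 50 kb were covered from 0.528% to 75.6%, and bins of 200 kb from 24.5% to 56.4%. Counting the length from the first peak left coverage at 42.8%, and merging peaks closer than 200 bp left 255.2 per Mb. No paired analysis was possible because the list does not mark replicates, and for the same reason no replicate could be left out.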
